A study of Mus musculus with 18 samples.

Results

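The 10 genes described here carry the calcium signal of the T cell receptor (TCR) to the nucleus. They are the NFAT transcription factors Nfatc1, Nfatc2 and Nfatc3, the catalytic subunits of the phosphatase calcineurin (Ppp3ca, Ppp3cb and Ppp3cc) with its regulator Rcan1, and the calcium entry genes Orai1, Stim1 and Stim2. They were chosen by name from this pathway and not by a measured value, although earlier results of these data were known. All 10 were among the 23337 genes of the count table and among the 11118 genes that had enough counts to be tested.

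The pathway begins when a stimulated TCR activates the kinase ZAP70 and, through it, phospholipase C gamma, which releases calcium from the endoplasmic reticulum. STIM proteins sense the emptied store and open ORAI channels in the plasma membrane. The calcium that enters activates calcineurin, which removes phosphates from NFAT proteins so that they move into the nucleus, where they act on genes such as Il2, Il4 and Fasl. Activity is therefore set largely by calcium and phosphorylation, which RNA levels do not measure.

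The RNA came from invariant natural killer T (iNKT) cells, T lymphocytes that recognise lipids bound to CD1d, sorted from the mouse thymus. The subsets NKT1, NKT2 and NKT17 were each taken from WT mice and from SKG mice, both labelled as BALB/c, with 3 libraries in each of the 6 groups. The SKG strain has an altered ZAP70 kinase, the product of a natural single-base change, and its T cells respond weakly through the TCR. The change is present in every cell, so these data do not separate an effect within iNKT cells from one of other thymus cells. According to the study's methods, WT and SKG mice descended from one cross of SKG with BALB/cJ mice and were then bred apart. NKT1 cells were sorted as CD49a+ cells with low ICOS, NKT2 cells as CD49a- ICOS-high cells without Sdc-1 and with high CD4 and TCR beta, and NKT17 cells as CD49a- ICOS-high Sdc-1+ cells. Age, sex and whether cells of several animals were combined are not given in the sources used here. Nothing in the labels says that the 3 libraries of a group came from separate mice, so the p-values measure the spread between these libraries.

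The libraries held 4391029 to 8895917 counts. NKT1 markers summed to 3973 to 5296 CPM (counts scaled to the effective library size) in NKT1 libraries and to at most 422 CPM elsewhere, and NKT17 markers to 2824 to 4261 CPM in NKT17 libraries and to at most 14.5 CPM elsewhere. NKT2 markers were highest in NKT2 libraries, at 1662 to 2451 CPM, although NKT17 libraries held 1389 to 1531 CPM of them. Among these markers, Itga1 (CD49a) for NKT1, Icos and Cd4 for NKT2 and Sdc1 for NKT17 encode proteins used in the sort. The sums therefore partly restate the sort, and in WT NKT2 cells Icos averaged 1109 CPM and Cd4 380 CPM. The B cell gene Pax5 was at 0 in all libraries, and red cell markers summed to at most 1.45 CPM. All 5 B cell markers together, mostly Cd79b, reached 40.7 CPM, and the 5 markers of double-positive thymocytes reached 46.6 CPM. Both sums were highest in SKG NKT17 libraries. Myeloid markers summed to at most 22.1 CPM. Zap70 itself averaged 520 to 789 CPM in the WT groups and 397 to 527 CPM in the SKG groups, which does not check the genotype, since the mutation is a single base. Replicate 3 of WT NKT1 stood apart from the other WT NKT1 libraries in 8 of the 10 genes, and the calls of members that depend on it are given below with and without it.

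Per kilobase of exon, Stim1 and Nfatc1 had the highest levels of the 10 genes. Averaged over the 18 libraries, the level in RPKM (CPM divided by the exonic length in kilobases) was 44.0 for Stim1 and 37.0 for Nfatc1. Ppp3cc followed at 22.8 and Orai1 at 21.6 RPKM, the first of them owing its place to NKT1 libraries. Ppp3ca averaged 13.4 RPKM. The other members lay close together, with Nfatc3 at 8.00, Ppp3cb at 6.26, Rcan1 at 6.02, Stim2 at 5.27 and Nfatc2 at 3.73 RPKM. No member was near the limit of detection, as the lowest count of any member in any library was 29, for Stim2. Levels below are in CPM, which compares libraries for 1 gene but not genes with each other.

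**Figure D1:**
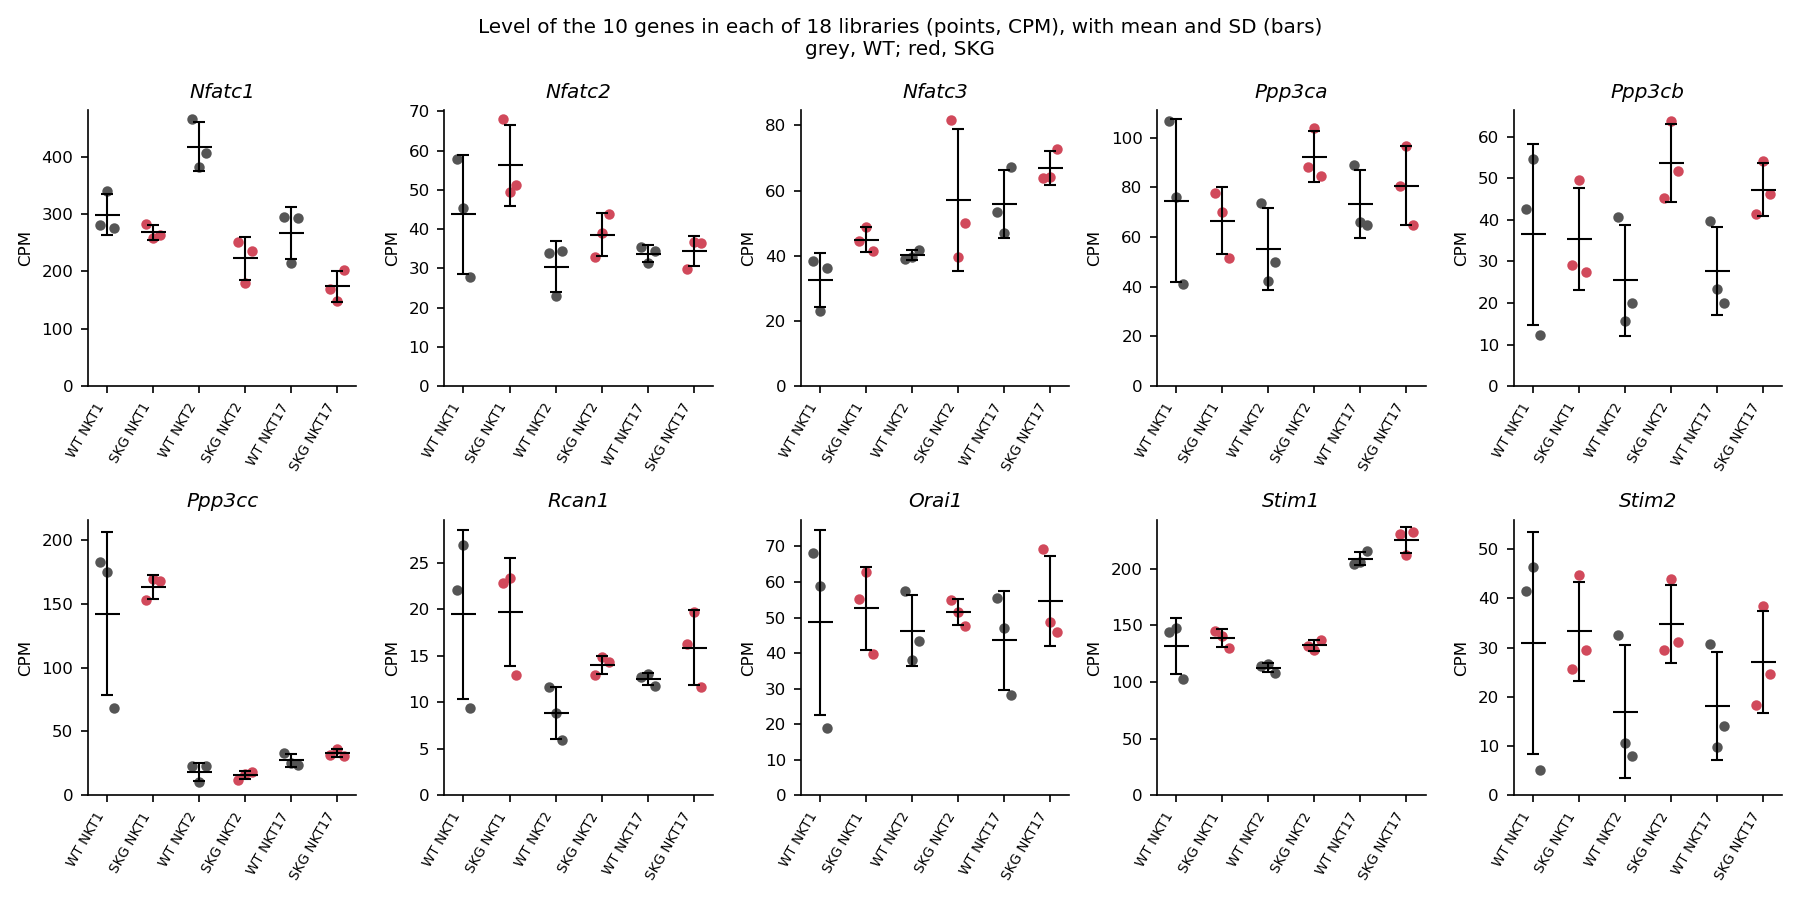
Each panel shows 1 gene, with its level in CPM on the vertical axis, the 6 groups on the horizontal axis, 1 point per library (grey for WT, red for SKG), and the mean and SD of the 3 libraries as bars. Nfatc1 is highest in WT NKT2 cells (381 to 465 CPM), Ppp3cc in NKT1 cells of both genotypes and Stim1 in NKT17 cells of both, while replicate 3 of WT NKT1 is the lowest point of its group for 9 of the 10 genes.

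The first question was whether the Zap70 mutation changed these RNAs in cells of the same subset. A gene was called at an adjusted p under 0.1 with a fold change of at least 1.5. In SKG against WT NKT2 cells 1 of the 10 members was called, where 7.95% of all tested genes were. In NKT17 cells it was also 1 of 10, against 8.37% of all genes. In NKT1 cells edgeR called 0 of 10, against 3.27% of all genes, with 1 member (Nfatc3) at an unadjusted p under 0.05 and 0 called by DESeq2. The called gene was Nfatc1 in both subsets. The median log2 fold change of the 10 members came to 0.09 (NKT1), 0.42 (NKT2) and 0.27 (NKT17), where that of all tested genes lay between -0.01 and 0.00. With no minimum on the fold change, 4.20%, 11.4% and 12.6% of all genes passed the adjusted p in NKT1, NKT2 and NKT17 cells, and the members that passed were the same.

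Nfatc1 encodes NFATc1 (NFAT2), an NFAT factor whose own gene is induced by NFAT in stimulated T cells. It lies at chr18:80802944-80909810 on the minus strand of build NCBIM37 (mm9), in the GENCODE M1 annotation. In NKT2 cells Nfatc1 had 465, 381 and 406 CPM in the WT libraries and 251, 180.3 and 236 CPM in the SKG libraries. Every SKG library was below every WT library. The gene fell by 0.91 on the log2 scale (SE 0.14, adjusted p = 0.00017), a level 1.88-fold lower. The direction and the call were the same under all 13 alternatives, with a smallest change of -0.77 and adjusted p from 2.1e-07 to 0.0027. NKT2 markers, of which 2 of 6 were called lower, summed to 2307 to 2451 CPM in these WT libraries and to 1662 to 2039 CPM in the SKG libraries. They did not move alike. Mean CPM in WT and SKG NKT2 cells was 1109 and 735 for Icos and 380 and 221 for Cd4, both genes of sort proteins. It was 269 and 173 for Gata3, 146 and 96.2 for Il4, 194 and 193 for Zbtb16, and 262 and 413 for Ccr7. The part of these markers in the Nfatc1 difference was not tested.

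In NKT17 cells Nfatc1 had 295, 215 and 293 CPM in WT and 169.8, 148 and 203 CPM in SKG libraries, which again did not overlap. It fell by 0.62 on the log2 scale (SE 0.14, adjusted p = 0.0063), 1.54-fold, close to the minimum of 1.5. Leaving out WT NKT17 replicate 1, WT NKT17 replicate 3 or SKG NKT17 replicate 2 gave -0.56, -0.54 and -0.52, below the minimum, with adjusted p between 0.039 and 0.051 and a range over all alternatives of 0.0011 to 0.051. NKT17 markers, of which 3 of 6 were called lower and 1 higher, summed to 4177 to 4261 CPM in WT and to 2824 to 3157 CPM in SKG NKT17 libraries. The 5 B cell markers, mostly Cd79b, summed to 24.8 to 40.7 CPM in SKG NKT17 libraries and to 7.82 to 11.1 CPM in WT NKT17, with Pax5 at 0. The 5 markers of double-positive thymocytes summed to 12.9 to 46.6 and 4.10 to 11.8 CPM, with Rag1, Rag2 and Dntt at 0 in both groups. The part of these markers in the difference was not tested.

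In NKT1 cells Nfatc1 had 281, 339.9 and 276 CPM in WT and 283, 258 and 264 CPM in SKG libraries, and these overlapped. The log2 fold change was -0.15 (SE 0.14, adjusted p = 0.72), with a 95% interval of -0.46 to 0.15. The fall was larger in NKT2 than in NKT1 cells, by 0.75 on the log2 scale (difference -0.75, SE 0.20, adjusted p = 0.044), and 3.87% of all tested genes were called in this comparison. Of the 10 members, 1 was called there, with or without the fold minimum (4.13% of all genes without it). Without WT NKT2 replicate 1, SKG NKT1 replicate 1 or SKG NKT2 replicate 2 it was -0.69, -0.71 and -0.64, with adjusted p of 0.11, 0.12 and 0.13. The adjusted p ranged from 0.016 to 0.13 over 19 alternatives. Without WT NKT1 replicate 3 the same comparison also called Ppp3ca (1.20, adjusted p = 0.032) and Ppp3cb (1.54, adjusted p = 0.088), which with all libraries were at 0.92 (SE 0.40, adjusted p = 0.30) and 1.14 (SE 0.65, adjusted p = 0.48). Over the 19 alternatives their adjusted p ran from 0.032 to 0.53 and from 0.088 to 0.69, and Ppp3ca was also called with the replicate block, a fit that adds the token in the sample titles as a term (0.90, adjusted p = 0.060). Between NKT17 and NKT1 cells the fall differed by -0.47 (SE 0.20, adjusted p = 0.26), where edgeR called 0 of 10 members against 4.17% of all genes (4.52% without the fold minimum), with 1 at an unadjusted p under 0.05 and 0 called by DESeq2. Without WT NKT17 replicate 2 this difference was -0.63 (SE 0.20, adjusted p = 0.090) and was called. Between NKT17 and NKT2 cells edgeR called 0 of 10 against 2.19% of all genes (2.26% without the fold minimum), with 0 at an unadjusted p under 0.05 and 0 called by DESeq2. In bulk RNA a lower level in each cell and a smaller share of cells that express the gene cannot be told apart.

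The other NFAT factors did not follow Nfatc1. Nfatc2 encodes NFATc2 (NFAT1), the form that resting T cells hold in the cytoplasm, and lies at chr2:168301910-168427157 on the minus strand. Its levels overlapped between SKG and WT in each of the 3 subsets, and its log2 fold changes were 0.36, 0.34 and 0.02 in NKT1, NKT2 and NKT17 cells. Nfatc3, an NFAT factor of developing thymocytes, lies at chr8:108582740-108654437 on the plus strand and shares 219 exonic bases with Esrp2 on the opposite strand. The strand setting of the counting was not stated, so reads of Esrp2 may be among its counts. Nfatc3 had 38.3, 22.9 and 36.1 CPM in WT NKT1 libraries and 44.4, 48.9 and 41.6 CPM in SKG NKT1 libraries. These did not overlap, but the difference of 0.46 (SE 0.22) did not pass (adjusted p = 0.35). In NKT2 cells the 3 WT libraries lay between 39.0 and 41.9 CPM, whereas the SKG libraries had 81.7, 39.7 and 50.1 CPM. Here the difference was 0.50 (SE 0.22, adjusted p = 0.18), and it was called only without SKG NKT2 replicate 2 (0.71, SE 0.22, adjusted p = 0.065).

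Calcineurin subunits were not called between the genotypes. Ppp3ca encodes the alpha catalytic subunit, at chr3:136333088-136600691 on the plus strand. In NKT2 cells it had 73.8, 42.1 and 49.95 CPM in WT and 88.3, 104 and 84.8 CPM in SKG libraries. The libraries did not overlap, yet the difference of 0.74 (SE 0.28) did not pass (adjusted p = 0.13). Ppp3cb encodes the beta catalytic subunit, at chr14:21318586-21365795 on the minus strand. It had 40.7, 15.7 and 19.9 CPM in WT NKT2 and 45.4, 63.8 and 51.9 CPM in SKG NKT2 libraries, a difference of 1.09 (SE 0.46, adjusted p = 0.19). The WT libraries were again wholly below the SKG libraries, and WT NKT2 replicate 1 was the closest to them. DESeq2 called Ppp3ca in this comparison (0.73, adjusted p = 0.060), and a fit of only the NKT2 libraries called both Ppp3ca (0.76, adjusted p = 0.021) and Ppp3cb (1.10, adjusted p = 0.086). Without WT NKT2 replicate 1 both were also called, at 1.00 and 1.59 (adjusted p = 0.051 and 0.062). Over the alternatives the adjusted p ran from 0.00082 to 0.37 for Ppp3ca and from 0.053 to 0.45 for Ppp3cb.

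In NKT17 cells Ppp3cb had 39.8, 23.3 and 19.9 CPM in WT and 41.5, 54.1 and 46.4 CPM in SKG libraries, without overlap. The difference of 0.78 (SE 0.46, adjusted p = 0.36) was called only when the NKT17 libraries were fitted alone (0.78, SE 0.24, adjusted p = 0.058). Ppp3cc, the gamma subunit, overlapped between the genotypes in all 3 subsets, with log2 fold changes of 0.20, -0.21 and 0.28. Rcan1, which binds and inhibits calcineurin and is itself an NFAT target gene, had 11.7, 8.91 and 5.98 CPM in WT NKT2 and 13.0, 14.9 and 14.3 CPM in SKG NKT2 libraries. These groups did not overlap, and the difference of 0.68 (SE 0.35) did not pass (adjusted p = 0.28, from 0.096 to 0.60 over the alternatives). With the replicate block Rcan1 was called (1.0019, adjusted p = 0.096), as were Ppp3ca (1.13, adjusted p = 0.00082) and Ppp3cb (1.52, adjusted p = 0.053) in NKT2 cells.

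None of the 3 calcium entry genes was called between SKG and WT in any subset. Orai1 encodes the pore of the calcium channel, at chr5:123465083-123480459 on the plus strand, with 7 exonic bases shared with Kdm2b on the opposite strand. Its levels overlapped in all subsets, with log2 fold changes between 0.11 and 0.33 and standard errors of 0.35 to 0.36. Stim1, the main calcium sensor of the endoplasmic reticulum, lies at chr7:109416338-109585362 on the plus strand and was the most precisely measured member. In NKT2 cells it had 114, 116 and 108 CPM in WT and 131, 128 and 137 CPM in SKG libraries. These did not overlap, but the difference was small (0.23, SE 0.12, adjusted p = 0.27), and its 95% interval of -0.02 to 0.48 stops short of a 1.5-fold change. Stim2, the sensor that responds to smaller losses of store calcium, lies at chr5:54389762-54512296 on the plus strand. It had 32.5, 10.7 and 7.92 CPM in WT NKT2 and 29.5, 43.9 and 31.2 CPM in SKG NKT2 libraries, a difference of 1.05 (SE 0.70, adjusted p = 0.44). Its 95% interval of -0.48 to 2.58 holds both no change and a rise well past the fold minimum.

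**Figure D2:**
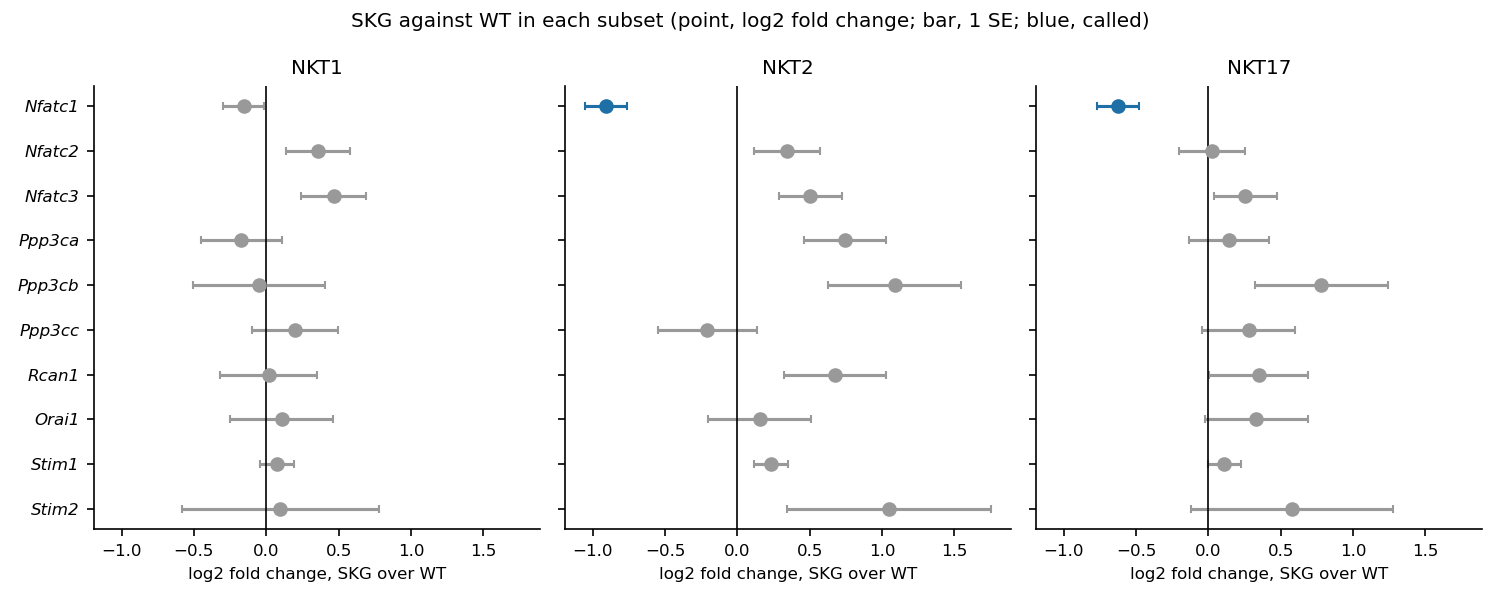
The log2 fold change of SKG over WT is on the horizontal axis for each of the 10 genes (rows) in NKT1, NKT2 and NKT17 cells (panels), with points for the estimate, bars for 1 SE and blue for called genes. Nfatc1 is the only blue point, at -0.91 in NKT2 and -0.62 in NKT17 cells, and it lies at -0.15 in NKT1 cells, while Stim2 and Ppp3cb have the widest bars.

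The second question was how the subsets differed within a genotype. In WT, 2 of 10 members were called between NKT1 and NKT2 cells (27.5% of all tested genes), 3 between NKT1 and NKT17 cells (24.7%) and 2 between NKT17 and NKT2 cells (20.0%). In SKG, 1 of 10 was called between NKT1 and NKT2 cells (18.7% of all genes), 4 between NKT1 and NKT17 cells (22.8%) and 2 between NKT17 and NKT2 cells (18.8%). The share of members called was thus near or below that of all genes in most of the 6 comparisons. With no fold minimum the counts were 4, 3 and 2 of 10 in WT (38.8%, 33.3% and 28.0% of all genes) and 2, 5 and 3 of 10 in SKG (25.8%, 32.5% and 26.8%). Comparisons of one genotype share libraries, and their values are given side by side. Ppp3cc and Stim1 made up most of the calls.

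Ppp3cc lies at chr14:70617705-70689257 on the minus strand. It had 183, 174.9 and 68.7 CPM in WT NKT1 and 153, 169 and 168 CPM in SKG NKT1 libraries. In NKT2 cells it had 22.7, 10.3 and 22.6 CPM in WT and 12.3, 16.8 and 18.6 CPM in SKG libraries, and in NKT17 cells 33.2, 25.0 and 23.9 CPM in WT and 31.6, 36.5 and 31.2 CPM in SKG libraries. Every NKT1 library, the low WT replicate 3 included, was above every NKT2 and NKT17 library. NKT1 exceeded NKT2 cells by 2.94 on the log2 scale in WT (SE 0.33, adjusted p = 2.8e-06), 7.68-fold, and by 3.35 in SKG (SE 0.34, adjusted p = 1.1e-06), 10.2-fold. Against NKT17 cells the differences were 2.38 in WT (SE 0.32, adjusted p = 1.8e-05) and 2.30 in SKG (SE 0.32, adjusted p = 2.8e-05). NKT17 was above NKT2 in both genotypes, by 1.04 in SKG (SE 0.33, adjusted p = 0.033) and by 0.56 in WT (SE 0.33, adjusted p = 0.27), and only the first passed. Without SKG NKT2 replicate 1 it was 0.90 (adjusted p = 0.13, from 0.00066 to 0.13 over the alternatives) and no longer passed. In RPKM, Ppp3cc was the most abundant calcineurin catalytic subunit gene in NKT1 cells, with 48.5 ± 21.8 (SD, n = 3) in WT against 13.5 ± 5.98 for Ppp3ca and 6.08 ± 3.62 for Ppp3cb. In WT NKT2 cells the order was different, with Ppp3ca at 10.0 ± 2.99, Ppp3cc at 6.33 ± 2.43 and Ppp3cb at 4.23 ± 2.22 RPKM (SD, n = 3), and neighbours in this order overlapped.

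Stim1 was the member that set NKT17 cells apart. It had 205, 206 and 216 CPM in WT NKT17 and 231, 212 and 233 CPM in SKG NKT17 libraries. In NKT1 cells it had 145, 148 and 103 CPM in WT and 145, 141 and 130.1 CPM in SKG libraries, and the NKT2 levels given above lay in the same range. No NKT17 library overlapped with any other subset. NKT17 exceeded NKT2 cells by 0.89 in WT (SE 0.12, adjusted p = 3.7e-06) and by 0.77 in SKG (SE 0.12, adjusted p = 2.7e-05). NKT1 was below NKT17 by 0.66 in WT (log2 fold change -0.66, SE 0.12, adjusted p = 9.4e-05) and by 0.70 in SKG (log2 fold change -0.70, SE 0.12, adjusted p = 6.0e-05). Without WT NKT1 replicate 3 the WT difference was -0.52 (SE 0.11, adjusted p = 0.00068, from 6.0e-07 to 0.0089 over the alternatives), below the fold minimum.

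The order of the subsets by Nfatc1 was not the same in WT and SKG, and of the 3 subset pairs only NKT2 and NKT1 passed the test of the difference between genotypes given above (adjusted p = 0.044, and not without any of 3 libraries). For NKT17 and NKT1 that difference was -0.47 (adjusted p = 0.26) and for NKT17 and NKT2 it was 0.28 (SE 0.20, adjusted p = 0.70). In WT, NKT2 libraries were above all NKT17 libraries, and NKT17 was lower by 0.64 (log2 fold change -0.64, SE 0.14, adjusted p = 0.0017). Without WT NKT2 replicate 1 or WT NKT17 replicate 2 this was -0.55 and -0.50, below the fold minimum, with adjusted p of 0.015 and 0.018 (0.00024 to 0.018 over the alternatives). WT NKT1 was lower than WT NKT2 by 0.48 (log2 fold change -0.48, SE 0.14, adjusted p = 0.012), past the adjusted p but not the fold minimum. Without WT NKT1 replicate 2 it was -0.59 (adjusted p = 0.0072) and was called. In SKG, the mean was highest in NKT1, with NKT2 next and NKT17 lowest. NKT1 exceeded NKT17 by 0.63 (SE 0.14, adjusted p = 0.0018), which was 0.53 without SKG NKT17 replicate 2 (adjusted p = 0.018, from 0.00027 to 0.018 over the alternatives). The SKG difference between NKT1 and NKT2 was 0.27 (SE 0.14, adjusted p = 0.20), although the libraries did not overlap. That of NKT17 against NKT2 was -0.36 (SE 0.14, adjusted p = 0.081), past the adjusted p but not the fold minimum, and these libraries overlapped.

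Nfatc2 and Nfatc3 leaned in opposite directions across the subsets. Nfatc2 had 57.9, 45.4 and 27.8 CPM in WT NKT1, 33.9, 22.9 and 34.4 CPM in WT NKT2 and 35.5, 31.3 and 34.3 CPM in WT NKT17 libraries. In SKG it had 68.0, 49.4 and 51.3 CPM in NKT1, 32.8, 39.0 and 43.8 CPM in NKT2 and 29.9, 36.6 and 36.4 CPM in NKT17 libraries. SKG NKT1 was above both other SKG subsets in every library, and WT NKT1 only outside replicate 3. NKT1 exceeded NKT17 in SKG by 0.71 (SE 0.22, adjusted p = 0.020), which was 0.57 without SKG NKT1 replicate 1 (adjusted p = 0.11, from 0.0031 to 0.11 over the alternatives). Against NKT2 the differences of 0.53 in WT (SE 0.23, adjusted p = 0.078) and 0.54 in SKG (SE 0.22, adjusted p = 0.095) missed the fold minimum. The WT difference from NKT2 was called without WT NKT1 replicate 3 (0.75, adjusted p = 0.0075), WT NKT2 replicate 1 (0.60, adjusted p = 0.094) or WT NKT2 replicate 3 (0.62, adjusted p = 0.088), over a range of 0.0075 to 0.45. The SKG one was called without SKG NKT1 replicate 2 (0.63, adjusted p = 0.096) or SKG NKT2 replicate 3 (0.65, adjusted p = 0.0996), over a range of 0.026 to 0.36. Between NKT1 and NKT17 in WT, the difference of 0.38 (SE 0.22, adjusted p = 0.24) was called without WT NKT1 replicate 3 (0.62, adjusted p = 0.029).

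Nfatc3 had its highest group means in NKT17 cells, with 53.3, 47.1 and 67.3 CPM in WT and 63.7, 64.0 and 72.8 CPM in SKG libraries. NKT1 was below NKT17 in WT, by 0.78 on the log2 scale (log2 fold change -0.78, SE 0.22, adjusted p = 0.0094), and no library overlapped. The call held under all 13 alternatives, from -0.92 to -0.61. In SKG the libraries of NKT1 and NKT17 did not overlap either, and the difference of -0.57 (SE 0.22, adjusted p = 0.057) missed the fold minimum. It passed without SKG NKT1 replicate 2 (-0.62), SKG NKT17 replicate 1 (-0.604) or SKG NKT17 replicate 2 (-0.602) and with upper-quartile scaling (-0.604), where the adjusted p ran from 0.0057 to 0.17 over all alternatives. NKT17 against NKT2 was 0.48 in WT (SE 0.22, adjusted p = 0.13), without overlap, and it was called at 0.59 without WT NKT17 replicate 2 (adjusted p = 0.089). In SKG it was 0.23 (SE 0.22, adjusted p = 0.54), and the libraries overlapped, as SKG NKT2 replicate 1 (81.7 CPM) was the highest of all 18.

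Rcan1 lies at chr16:92392198-92466391 on the minus strand and was the lowest member in CPM. It had 22.1, 26.9 and 9.39 CPM in WT NKT1, 12.7, 13.0 and 11.8 CPM in WT NKT17 and, as given above, at most 11.7 CPM in WT NKT2 libraries. NKT1 exceeded NKT2 in WT by 1.14 (SE 0.35, adjusted p = 0.014), although replicate 3 of WT NKT1 lay inside the NKT2 range. The call held under all 13 alternatives (0.84 to 1.46), and without that library the difference from NKT17, 0.64 in the full data (SE 0.34, adjusted p = 0.18), was called too (0.96, SE 0.31, adjusted p = 0.023). In SKG it had 22.9, 23.3 and 13.0 CPM in NKT1, and 16.3, 19.7 and 11.6 CPM in NKT17 libraries, which overlapped with each other and with NKT2.

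Rcan1 has several transcription starts, of which the one nearer to the end of the gene is known to answer to calcineurin and NFAT. The 250 bases before 2 of its starts are shown because they differ in the core letters of the NFAT site. They come from RefSeq, on build GRCm38.p6 and the minus strand, and capitals mark GGAAA or TTTCC, the same core read on either strand. The first lies at chr16:92400079-92400328 and the second at chr16:92466170-92466419.
Rcan1, inner start: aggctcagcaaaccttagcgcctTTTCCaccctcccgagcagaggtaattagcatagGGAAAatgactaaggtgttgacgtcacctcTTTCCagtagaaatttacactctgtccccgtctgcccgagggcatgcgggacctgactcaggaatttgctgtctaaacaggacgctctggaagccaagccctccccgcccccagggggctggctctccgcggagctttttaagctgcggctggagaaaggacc
Rcan1, outer start: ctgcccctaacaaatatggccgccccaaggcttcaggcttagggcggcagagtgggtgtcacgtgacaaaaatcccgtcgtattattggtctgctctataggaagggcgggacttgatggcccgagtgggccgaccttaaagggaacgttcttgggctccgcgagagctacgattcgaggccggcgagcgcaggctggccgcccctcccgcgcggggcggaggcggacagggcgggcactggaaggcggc
The inner window holds 3 matches and the outer one 0. Among 32851 windows of the same length, 55.6% hold at least 1 match, so a match by itself says little. Counts per gene do not separate the starts, so the Rcan1 levels above belong to both together. Windows were counted for 7 of the 10 members, and 5 of their 10 windows hold the core. Nfatc1 was left out before the count, and Ppp3ca and Ppp3cc had no window of the full length. The core before the starts of these genes was therefore not tested.

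Orai1, Stim2, Ppp3ca and Ppp3cb were not called between subsets in either genotype. Orai1 had the narrowest range of the members, 0.35 on the log2 scale between its highest and lowest group mean, against 3.35 for Ppp3cc. Its libraries overlapped in each of the 9 comparisons. Without WT NKT1 replicate 3, NKT1 exceeded NKT2 in WT by 0.72 for Ppp3ca (adjusted p = 0.019), by 0.93 for Ppp3cb (adjusted p = 0.051) and by 1.37 for Stim2 (adjusted p = 0.070), and all 3 were called. That brought the count in this comparison from 2 to 6 members, with Nfatc2. It was 4 without WT NKT2 replicate 1, with Nfatc2 and Ppp3ca (0.69, adjusted p = 0.092) added. Between NKT1 and NKT17 in WT, Ppp3cb was called without WT NKT1 replicate 3 (0.82, adjusted p = 0.095), and the count was then 5. A fit of the NKT1 and NKT2 libraries of SKG alone called Ppp3cb lower in NKT1 (-0.61, adjusted p = 0.038), where the fit of all libraries gave the same size with a larger error (-0.61, SE 0.46, adjusted p = 0.41).

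**Figure D3:**
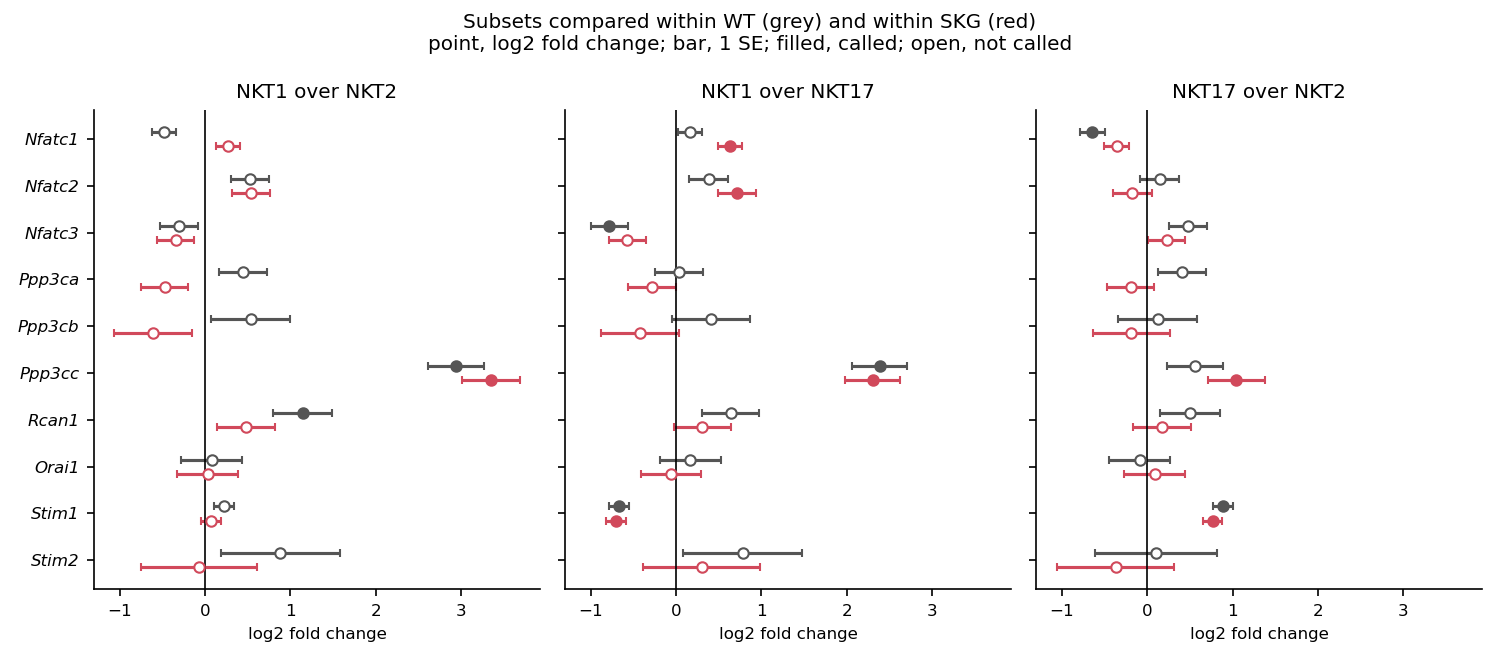
The log2 fold change between subsets is on the horizontal axis for the 10 genes (rows) in the 3 comparisons (panels), with grey for WT, red for SKG, bars for 1 SE and filled points for called genes. Ppp3cc lies between 2.30 and 3.35 to the right in both comparisons with NKT1, Stim1 is filled in both with NKT17, and Nfatc1 lies on opposite sides of 0 in WT and SKG for NKT1 over NKT2.

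The members moved together between libraries of one group, which limits the tests above. Deviations from the group mean of log2 CPM were correlated over the 18 libraries as a description; the points share library, depth and preparation, and each group of 3 sums to 0. Ppp3cb and Stim2 had the highest correlation of any pair (r = 0.94), and Ppp3ca, Ppp3cc, Rcan1 and Orai1 correlated with both at 0.73 to 0.83. Nfatc2 was closest to Ppp3cc (r = 0.84). Nfatc1 correlated with no member above 0.38, and Nfatc3 was below 0 with every member but Nfatc1. In replicate 3 of WT NKT1, Stim2 had 5.14 CPM where the other WT NKT1 libraries had 41.4 and 46.4 CPM. In the same library Ppp3cb had 12.4 CPM against 42.7 and 54.6, Orai1 had 19.0 CPM against 68.1 and 58.8, and Ppp3ca had 41.1 CPM against 107 and 76.0. Only Nfatc1 and Nfatc3 kept to their group, as both lay within or just below the range of the other WT NKT1 libraries.

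The pattern was shared with many genes outside the pathway. A principal component of the deviations of 8389 genes with a mean of at least 10 CPM took 32.4% of the variance within groups. Its score was lowest in WT NKT1 replicate 3 (-0.51) and highest in WT NKT2 replicate 1 (0.41), and replicate 1 was the highest library of each WT subset. The 3 libraries of a genotype with the same replicate number share a token in the sample titles. Their scores had the same sign in all 3 subsets, except WT replicate 2 (0.13 in NKT1, -0.23 in NKT2 and -0.19 in NKT17). No SKG library has the token of WT replicate 1 (0.38, 0.41 and 0.33), and no WT library that of SKG replicate 3 (-0.13, -0.13 and -0.10). For these libraries token and genotype cannot be told apart. The component correlated with Stim2 at 0.93, Ppp3cb at 0.92, Ppp3ca at 0.90 and Orai1 at 0.79. For Stim2, 0.63% of the 8389 genes had a larger correlation in size. Nfatc1 (0.14) and Nfatc3 (-0.15) hardly followed it, and 76.8% and 75.7% of genes had a larger one. Of the members that did not overlap between WT and SKG NKT2 cells, Nfatc1 thus had the weakest relation to the component, while Ppp3ca, Ppp3cb and Rcan1 (0.72) followed it. The part of the component in their differences was not tested.

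**Figure D4:**
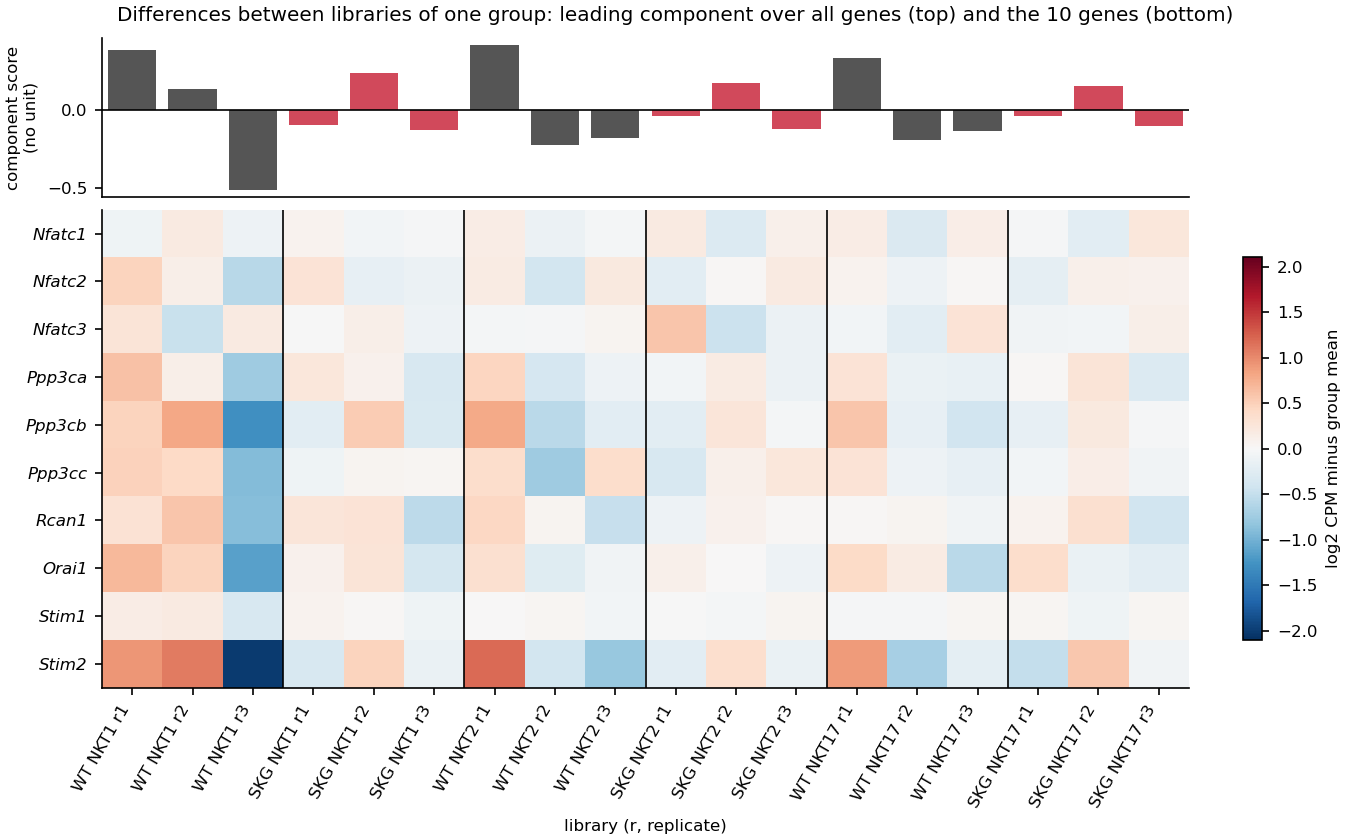
The top panel gives the score (no unit) of the leading component of differences within groups for each of the 18 libraries, and the lower panel gives for the 10 genes (rows) the log2 CPM minus the group mean as colour, from blue (below) to red (above). WT NKT1 replicate 3 is the lowest bar and the bluest column, with Stim2 2.01 below its group mean, whereas the rows of Nfatc1 and Stim1 are pale throughout.

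Other genes of calcium entry and stores were a list of 13, all tested. In SKG NKT2 cells 3 were called higher and 2 lower, with a median log2 fold change of 0.16 over the list, where 7.95% of all tested genes were called. Atp2b1, a calcium pump of the plasma membrane, rose from 75.8, 107 and 95.9 CPM in WT to 205, 170.3 and 208 CPM in SKG NKT2 libraries (1.06, SE 0.16, adjusted p = 0.00011). Itpr2, a channel that releases calcium from the store, rose by 0.74 (SE 0.14, adjusted p = 0.0012). Tmem66, also named Saraf, encodes a protein that turns store-operated entry down, and it rose by 0.68 in NKT2 (SE 0.11, adjusted p = 0.00019) and by 0.97 in NKT17 cells (SE 0.11, adjusted p = 2.2e-06). In NKT17 cells it was the only gene called of the 13 (8.37% of all genes), at 238, 291 and 259 CPM in WT and 513, 512 and 514 CPM in SKG libraries. That count rested on the fold minimum and on single libraries. Itpr2 (0.57, adjusted p = 0.011) was called too without SKG NKT17 replicate 1 or 3 (0.60 each) or WT NKT17 replicate 3 (0.70), and Atp2b1 (0.47, adjusted p = 0.064) without WT NKT17 replicate 3 (0.75), so that the count was 2, 2 and 3, and 3 with no fold minimum (12.6% of all genes). Their adjusted p ran from 0.0038 to 0.067 and from 0.00099 to 0.33 over the alternatives. Of the genes that fell in SKG NKT2 cells, Orai3, a relative of Orai1, fell by 0.61 (SE 0.14, adjusted p = 0.0047, from 0.00050 to 0.041 over the alternatives), and it was under the fold minimum without WT NKT2 replicate 1 (-0.51) or SKG NKT2 replicate 2 (-0.52). Atp2b4, another plasma membrane pump, had 12, 15 and 15 counts in WT NKT2 and 0 counts in each SKG NKT2 library, a level at least 4.34-fold lower when 3 counts per library are taken as the floor. In NKT1 cells edgeR called 0 of 13 (3.27% of all genes), with 5 at an unadjusted p under 0.05. Plcg1, the phospholipase upstream of calcium release, was at 0.67 there (SE 0.22, adjusted p = 0.14, from 0.029 to 0.31 over the alternatives), and it was called by DESeq2 (0.68), with the replicate block (0.84) and without WT NKT1 replicate 1 (0.85).

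Across WT subsets, 3 of the 13 passed between NKT1 and NKT2 cells (27.5% of all genes), all with more RNA in NKT1. These were Tmem66 (1.26, SE 0.11, adjusted p = 4.8e-09), Atp2b1 (1.32, SE 0.16, adjusted p = 1.2e-06) and Atp2b4 (3.37, SE 0.47, adjusted p = 1.1e-05). Between NKT1 and NKT17 cells (24.7% of all genes) Tmem66 was higher, whereas Orai2 (-0.87, SE 0.12, adjusted p = 4.5e-06) and Itpr1 (-0.92, SE 0.26, adjusted p = 0.0097) were lower in NKT1. Orai2, a channel subunit that joins Orai1, thus had its highest level in the same subset as Stim1, with 239 ± 32.3 CPM in WT NKT17 cells (SD, n = 3) against 131 ± 15.7 in NKT1 and 163 ± 11.2 in NKT2. Between NKT17 and NKT2 cells (20.0% of all genes) Atp2b1 and Atp2b4 passed, both with more RNA in NKT17. In SKG, 4 of the 13 exceeded NKT2 in NKT1 cells (18.7% of all genes were called), 5 exceeded NKT2 in NKT17 cells (18.8%), and 2 (Orai2 and Itpr1) had less RNA in NKT1 than in NKT17 (22.8%). Itpr1 (-0.66, adjusted p = 0.066, from 0.014 to 0.17 over the alternatives) was not called there without SKG NKT1 replicate 1 (-0.62), SKG NKT1 replicate 3 (-0.61), SKG NKT17 replicate 2 (-0.63) or SKG NKT17 replicate 3 (-0.64). Of the 4 between NKT1 and NKT2 in SKG, Itpr3 was lost without SKG NKT1 replicate 3 (0.56, adjusted p = 0.21) or SKG NKT2 replicate 2 (0.73, adjusted p = 0.12). Itpr1 was called lower in NKT1 without SKG NKT2 replicate 2 (-0.74, adjusted p = 0.053). Atp2a3 passed with no fold minimum (0.25, adjusted p = 0.060), where 25.8% of all genes did.

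Of 11 other genes of the calcineurin complex and its inhibitors, 10 were tested. Between the genotypes edgeR called 1 in NKT2 cells (7.95% of all genes), 0 in NKT1 (3.27%, with 1 at an unadjusted p under 0.05) and 0 in NKT17 (8.37%, with 3 at an unadjusted p under 0.05), and DESeq2 called 0 in NKT1 and NKT17. The called gene was Rcan3, a relative of Rcan1, which fell from 88.5, 53.0 and 81.5 CPM in WT to 35.5, 49.5 and 46.2 CPM in SKG NKT2 libraries (-0.76, SE 0.24, adjusted p = 0.058, from 0.025 to 0.23 over the alternatives). It no longer passed without WT NKT2 replicate 1 (-0.62), WT NKT2 replicate 3 (-0.69), SKG NKT2 replicate 1 (-0.63) or SKG NKT2 replicate 3 (-0.81). With no fold minimum Fkbp1a also passed, lower in SKG in each subset. It was at -0.29 in NKT1 (adjusted p = 0.097), -0.49 in NKT2 (adjusted p = 0.00096) and -0.35 in NKT17 (adjusted p = 0.017). Ppp3r1 then passed in NKT17 too (-0.36, adjusted p = 0.044). Of all genes, 4.20%, 11.4% and 12.6% passed in this way in NKT1, NKT2 and NKT17. Rcan3 ran against Rcan1 across WT subsets, with less RNA in NKT1 than in NKT2 cells (log2 fold change -2.27, SE 0.26, adjusted p = 3.6e-07). Cabin1, an inhibitor of calcineurin, had 266 ± 47.5 CPM in WT and 264 ± 24.4 CPM in SKG NKT17 cells (SD, n = 3), against group means of 61.0 to 79.1 CPM in NKT1 and NKT2 cells. Its difference between NKT17 and NKT2 was 2.13 in WT (SE 0.13, adjusted p = 3.0e-11) and 1.93 in SKG (SE 0.13, adjusted p = 1.9e-10). Ppp3r1, which encodes the regulatory subunit shared by all calcineurin forms, was called in no comparison with the fold minimum, and its group means lay between 174.8 and 233 CPM.

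Of 10 other NFAT factors, kinases that phosphorylate NFAT and scaffold genes, 9 were tested. In SKG NKT2 cells 1 was called (7.95% of all genes), Dyrk2, a kinase of NFAT, which rose from 8.18, 6.82 and 12.4 CPM to 19.2, 23.5 and 15.6 CPM (1.08, SE 0.27, adjusted p = 0.014). The count was 2 without SKG NKT2 replicate 2, when Homer3 was called (adjusted p = 0.056, and 0.25 with all libraries), and 2 with the replicate block, when Gsk3a was called (adjusted p = 0.094, and 0.59 without the block). In NKT1 and NKT17 cells edgeR and DESeq2 called 0 of the 9 (3.27% and 8.37% of all genes), with 0 and 1 at an unadjusted p under 0.05. That gene, Csnk1a1, was lower in SKG NKT17 cells (-0.48, adjusted p = 0.0043) and missed only the fold minimum (12.6% of all genes passed without it). Dyrk2 was also the list's gene of NKT1 cells, where it was 2.09 higher than in NKT2 (SE 0.27, adjusted p = 2.3e-06) and 1.47 higher than in NKT17 (SE 0.26, adjusted p = 0.00012) in WT. Homer2, which competes with calcineurin for NFAT, was found mainly in NKT2 cells, with 10.3 ± 6.54 CPM in WT and 7.61 ± 0.32 CPM in SKG (SD, n = 3). In NKT1 libraries it had at most 0.95 CPM in WT and 1.87 CPM in SKG. The SKG difference between NKT1 and NKT2 was called by edgeR but not by DESeq2 (-3.62, adjusted p = 0.20). In NKT17 libraries it had at most 0.35 CPM in WT and 0 in SKG, so that NKT2 exceeded NKT17 by at least 20.4-fold in WT and by at least 15.1-fold in SKG, with 3 counts per library as the floor. WT NKT2 replicate 1 was the highest library (17.8 CPM, 87 counts), and without it the WT bound was 13.0-fold. Nfatc4 did not pass the filter on low counts and Nfat5, which is regulated by osmotic stress rather than calcineurin, was called lower in NKT1 than in NKT17 in SKG (-1.05, SE 0.46, adjusted p = 0.095, from 0.026 to 0.38 over the alternatives), and in WT only without WT NKT1 replicate 1 (-1.29, adjusted p = 0.043, against -0.49 and 0.47 with all libraries). The SKG call was lost with no filter (adjusted p = 0.10), with the replicate block (adjusted p = 0.12) and when any one of the SKG NKT1 libraries, SKG NKT17 replicate 1 or SKG NKT17 replicate 2 was left out (-1.16 to -0.71, adjusted p up to 0.38).

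**Figure D5:**
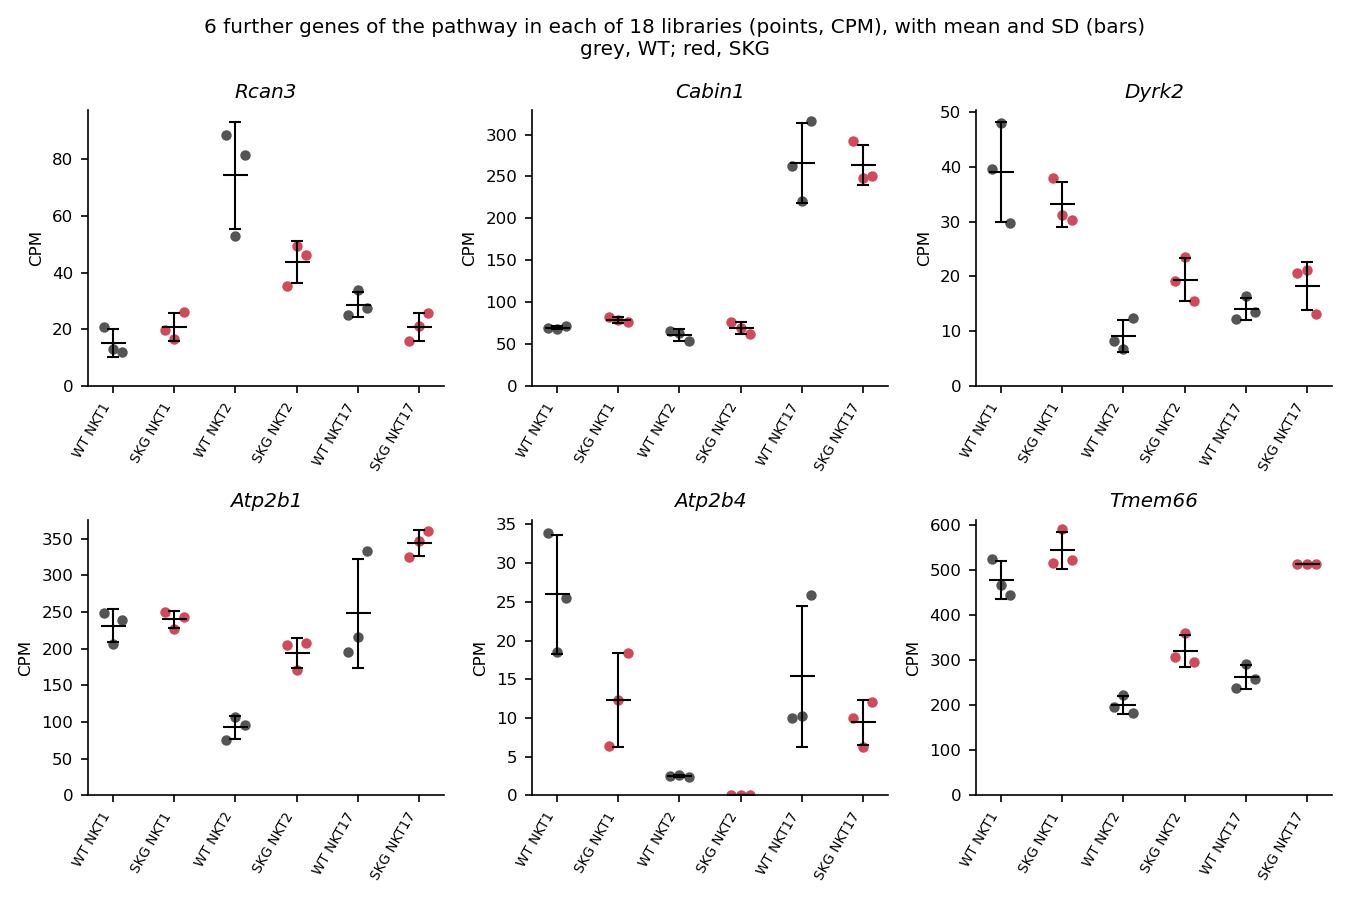
Levels in CPM of 6 other pathway genes are shown for the 18 libraries, with 1 point per library (grey for WT, red for SKG) and the mean and SD as bars. Rcan3 is highest in WT NKT2 cells, Cabin1 in NKT17 cells of both genotypes and Dyrk2 in NKT1 cells, Atp2b1 and Tmem66 are higher in SKG than in WT NKT2 cells, and Atp2b4 is at 0 in all SKG NKT2 libraries.

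Of 11 genes that textbooks give as dependent on NFAT, 10 were tested, and they did not move as one. In SKG NKT2 cells, where Nfatc1 was lower, 3 were called higher and 0 lower (7.95% of all genes were called). Il4 averaged 146 CPM in WT and 96.2 CPM in SKG NKT2 libraries, and it was called lower only with the replicate block (-0.83, adjusted p = 0.048). Fasl, the death ligand, rose by 2.75 (SE 0.19, adjusted p = 2.7e-09), from 13.9 ± 3.39 to 94.2 ± 24.6 CPM (SD, n = 3). Tnf rose by 1.36 (SE 0.26, adjusted p = 0.0013), and Cd40lg, which encodes the ligand of CD40, by 0.85 (SE 0.10, adjusted p = 3.5e-06). In SKG NKT17 cells, where 8.37% of all genes were called, Fasl (2.17, SE 0.26, adjusted p = 8.0e-06) and Cd40lg (0.65, SE 0.10, adjusted p = 0.00012) rose as well, while Il4 fell by 1.06 (SE 0.32, adjusted p = 0.049, from 0.0065 to 0.16 over the alternatives). Without WT NKT17 replicate 2, SKG NKT17 replicate 2 or SKG NKT17 replicate 3 the change of Il4 was -0.90, -0.99 and -0.99, and it was not called. Zbtb16 was lower in SKG NKT17 cells (-0.56, adjusted p = 0.082), under the fold minimum. It was called with the replicate block (-0.63) and without WT NKT17 replicate 1 (-0.67) or WT NKT17 replicate 2 (-0.73). Il4 rose by 1.65 in SKG NKT1 cells (SE 0.32, adjusted p = 0.0061), where edgeR called no other gene of the list (3.27% of all genes). DESeq2 called 3 there, with Nr4a1 (2.73) and Egr2 (-1.10) added. Nr4a1 (2.69 in edgeR, SE 0.97, adjusted p = 0.22, from 0.021 to 0.67 over the alternatives) was also called with the replicate block (3.00), and SKG NKT1 replicate 2 held 38.7 CPM of it against 5.57 and 6.24 CPM in the other SKG NKT1 libraries. Egr2 (-1.11, SE 0.36, adjusted p = 0.12, from 0.032 to 0.35 over the alternatives) was also called without SKG NKT1 replicate 1 (-1.498). Across WT subsets, 8 of 10 were called between NKT1 and NKT2 cells (27.5% of all genes), 4 in each direction. Ifng, Fasl, Il2 and Tnf were higher in NKT1, and Il4, Zbtb16, Egr2 and Nr4a1 were higher in NKT2. Of these, Tnf was not called without WT NKT1 replicate 3 (0.49), WT NKT2 replicate 1 (0.55) or WT NKT2 replicate 3 (0.64) or with only the libraries compared (0.71), and Egr2 not without WT NKT1 replicate 1 (-0.92) or WT NKT2 replicate 1 (-0.75). Several of these, Ifng, Il4 and Zbtb16 among them, are also genes by which the subsets are told apart.

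For the 3 members with the widest range of group means, the genes with the most similar profile were found among 8627 genes (mean count per library of 50 or more) by Pearson correlation of log2 CPM over the 18 libraries. Ppp3cc was most like Hopx (r = 0.96), Dennd4a (0.96) and Tmem163 (0.95). For Nfatc1, Lig1 (0.90) and Dnmt1 (0.89), which act in DNA ligation and maintenance of DNA methylation, were among the 3 most similar. Stim2 was most like Btbd1 (0.94), Dapk3 (0.93) and Mknk2 (0.92). The libraries fall into 6 groups and share their preparation, so these values describe profiles over these libraries only.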

How the data were processed

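Poly-A RNA of sorted thymic iNKT subsets was amplified as full-length cDNA, fragmented with Tn5 and sequenced as single-end reads of 50 bases. According to the study's methods, the authors removed adapter, ribosomal, transfer and spike-in reads, aligned the rest to mm9 with TopHat 1.4.1 and counted reads per gene with htseq-count (union mode, version 0.6.0). The submitters' processing notes name HTSeq 0.7.1, Bowtie 1.0.0 and the builds hg19 and mm10 instead. Strand setting and annotation are not given in the sources used here. The deposited values were raw counts per gene, whole numbers for 23337 genes in 18 libraries. The table held 2 more columns that matched no sample, and they were not used.

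Counts were tested with edgeR 4.0.16 (quasi-likelihood test, TMM scaling, filterByExpr by group, one fit of 6 groups with 12 residual degrees of freedom) in R 4.3.3, and p-values were adjusted over all 11118 tested genes by the Benjamini-Hochberg method. The thresholds, adjusted p under 0.1 and fold change of at least 1.5, were those of the study. The SE was taken from the F statistic as the size of the change over the root of F, and intervals used the residual degrees of freedom. Deviations and correlations used log2 CPM with a prior count of 2. The scripts were tested on simulated data. Depth ranged from 4391029 to 8895917 counts per library, and the lowest count of any member was 29. Replicates of a group were numbered in accession order and differed by more than sampling noise (chi-square over degrees of freedom from 5.47 to 24.4), so none was merged. Groups share tokens in the sample titles, whose meaning is not stated. Every pair's deviations correlated above 0.1 only for NKT17 against NKT2 in WT (0.22 to 0.35), where the block changed no call of a member.

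The members and the lists of other pathway genes were chosen with earlier results of these data known, and none of them is an independent test. The genes named were the members, at most 4 called genes per list and comparison (smallest adjusted p first), and the 3 closest profiles for the 3 members of widest range. Outside this rule, Orai3, Ppp3r1, Fkbp1a, Csnk1a1, Atp2a3, Nfatc4, Plcg1, Homer3, Gsk3a, the remaining NFAT-dependent genes and the statistics of members past no threshold were chosen after their values were seen. Alternatives were DESeq2 1.42.0, other scalings (RLE, upper-quartile), no filter, no fold minimum, a separate fit for the libraries of each comparison, the block and leaving out each library. Dropping the fold minimum kept the main fit, so this alternative could add calls but could not lose a call or change a value. Positions are from GENCODE M1 on NCBIM37, and promoter windows are from RefSeq on GRCm38.p6. A few genes that these rules would name are not reported here.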

Additional observations from a re-analysis of the deposited data

Results flagged for a closer look

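The SKG effect, the log2 fold change of SKG over WT, was compared between subsets for the members and the 4 lists of other pathway genes, and the differences below passed edgeR's quasi-likelihood test with Benjamini-Hochberg adjustment over all tested genes.

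Of the members, Nfatc1 differed between NKT2 and NKT1 cells by -0.75 (SE 0.20, adjusted p = 0.044), falling in NKT2 cells and lying within the replicate spread in NKT1 cells. Among other pathway genes, the effect was higher in NKT2 than in NKT1 cells for Fasl by 3.10, for Dyrk2 and Tnf by 1.31 each, for the calcium pump gene Atp2b1 by 1.01 and for Cd40lg by 0.85. It was lower in NKT2 than in NKT1 cells for Il4 (-2.25) and for the calcineurin regulator Rcan3 (-1.20). Between NKT17 and NKT1 cells it was higher for Fasl by 2.52, for Tmem66 by 0.78 and for Cd40lg by 0.64, and lower for Il4 (-2.71). Between NKT17 and NKT2 cells it was lower for Tnf (-1.35). Atp2b4 differed by -5.79 between NKT2 and NKT1 cells and by 6.15 between NKT17 and NKT2 cells. These last values are fitted against SKG NKT2 libraries that all had 0 counts and depend on the prior count, so they give a direction but no size. Both were lost without SKG NKT2 replicate 3 (adjusted p = 0.101 and 0.104).

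Several of these calls were lost when 1 library was left out. For Rcan3 the adjusted p ran from 0.021 to 0.21 over 19 alternatives, and the call was lost without WT NKT1 replicate 2 or 3, WT NKT2 replicate 1 or 3, SKG NKT1 replicate 1 or 3, or SKG NKT2 replicate 1 or 3, with values from -1.27 to -1.01. For Dyrk2 it ran from 0.025 to 0.18, and the call was lost without WT NKT1 replicate 2, WT NKT2 replicate 1 or 2, SKG NKT1 replicate 2 or 3, or SKG NKT2 replicate 1 or 2, with values from 1.13 to 1.30. For Tnf between NKT2 and NKT1 it ran from 0.033 to 0.18, and the call was lost in a fit of only the libraries compared and without WT NKT1 replicate 3, WT NKT2 replicate 1 or 3, any SKG NKT1 library or SKG NKT2 replicate 1, with values from 1.10 to 1.32. For Tnf between NKT17 and NKT2 it ran from 0.014 to 0.15, and the call was lost without WT NKT2 replicate 1 or 3, WT NKT17 replicate 1, SKG NKT2 replicate 1 or SKG NKT17 replicate 2, with values from -1.31 to -1.20. Cd40lg between NKT17 and NKT1 was under the fold minimum without WT NKT17 replicate 1 (0.584) or SKG NKT17 replicate 3 (0.56). Nfatc1 lost its call without WT NKT2 replicate 1 (-0.69), SKG NKT1 replicate 1 (-0.71) or SKG NKT2 replicate 2 (-0.64), and Fasl, Il4, Atp2b1, Tmem66 and the NKT2 difference of Cd40lg kept theirs under all 19 alternatives.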

How the results depend on the processing

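The SKG fall of Nfatc1 in NKT2 cells and the NKT1 excess of Ppp3cc kept direction and call under every alternative run. Counts of called members moved by more than 1.5 times in 8 cases outside the leave-outs. For SKG against WT in NKT2 cells the count of 1 became 2 with DESeq2, 3 with only the libraries compared and 4 with the replicate block, and in NKT17 cells 1 became 2 with only the libraries compared. Between NKT1 and NKT2 it went from 2 to 4 in WT with no fold minimum, and from 1 to 2 in SKG with no fold minimum or with only the libraries compared. Smaller moves were from 4 to 5 between NKT1 and NKT17 in SKG with no fold minimum or upper-quartile scaling, and from 2 to 3 between NKT17 and NKT2 in SKG with no fold minimum. The difference of the SKG effect between NKT2 and NKT1 gave 2 in place of 1 with the replicate block. Over all genes, 364 calls for SKG against WT in NKT1 became 207 with only the libraries compared, and 931 in NKT17 became 1398 with no fold minimum. The cause was not tested.

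Leaving out 1 library gave 1 to 3 called members for SKG against WT in NKT2 and 0 to 1 in NKT17. In WT it gave 2 to 6 for NKT1 against NKT2, 3 to 5 for NKT1 against NKT17 and 1 to 2 for NKT17 against NKT2. In SKG it gave 1 to 2 for NKT1 or NKT17 against NKT2. For the difference of the SKG effect it gave 0 to 3 between NKT2 and NKT1 and 0 to 1 between NKT17 and NKT1. Over all genes the latter went from 296 to 537 (464 with all libraries), and NKT17 against NKT2 from 157 to 256 (244). The highest of the WT member counts, 6 and 5, came without WT NKT1 replicate 3.

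Directions that turned belonged to differences that had not passed. For SKG against WT in NKT1 cells the log2 fold change ran over the leave-outs from -0.27 to 0.44 for Orai1, -0.46 to 0.19 for Ppp3ca, -0.45 to 0.36 for Ppp3cb, -0.13 to 0.43 for Ppp3cc, -0.31 to 0.33 for Rcan1, -0.067 to 0.18 for Stim1 and -0.39 to 0.51 for Stim2. In NKT17 cells it ran from -0.030 to 0.12 for Nfatc2 and from -0.0026 to 0.30 for Ppp3ca.

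The replicate block used tokens of the sample titles. SKG and WT groups share only 2 of them, and the correlations of paired deviations there ran from -0.15 to 0.09. With 2 pairs in each comparison, these values cannot show whether samples of a token share more than the token. With the block Ppp3ca (1.13, adjusted p = 0.00082), Ppp3cb (1.52, adjusted p = 0.053) and Rcan1 (1.00191, adjusted p = 0.096) were called in NKT2 cells, and in NKT1 cells Ppp3ca turned from -0.17 to 0.22 and Ppp3cb from -0.05 to 0.30. The difference of the SKG effect on Ppp3ca between NKT2 and NKT1 cells was called at 0.90 (adjusted p = 0.060). Upper-quartile scaling moved the median of all genes by -0.10 in NKT1 against NKT2 in WT. With 3 libraries a group and a spread as wide as that of Stim2 and Ppp3cb, changes of the fold minimum could not be told from replicate error for those genes.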
